A study of Mus musculus with 21 samples.

Results

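Creatine kinase, adenylate kinase and myoglobin carry high-energy phosphate and oxygen through heart muscle cells. The 6 genes described here are Ckm, Ckmt2, Ckb, Slc6a8, Ak1 and Mb, of 19937 genes that had a probe set naming that gene alone. Each had 1 such probe set on the array, and all 6 were among the 11384 genes bright enough to be tested. Expression was measured on 21 Affymetrix whole-transcript arrays of left ventricle myocardium from mice aged 9 to 13 weeks, and values are log2 units, so that a difference of 1 is a doubling.

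Tg(αMHC-MerCreMer) mice express a Cre recombinase from the promoter of α-myosin heavy chain, which is active in cardiomyocytes, and tamoxifen moves this Cre into the nucleus. The labels name no floxed allele. Of the MerCreMer samples, 3 were from mice given tamoxifen (TAM, 40 mg/kg, intraperitoneal) on 4 days in a row and 3 from mice control-injected on 4 days, while 3 followed tamoxifen and 3 a control injection on 1 day only. Of the wild-type samples, 3 followed 4 tamoxifen injections and 6 followed 4 control injections, with 1 array for each sample. All mice were killed 4 days after the last injection, and the labels do not say what was injected as the control. In each group of 3, replicate 1 was male and replicates 2 and 3 were female, while the wild-type control group held 3 males and 3 females.

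In muscle, creatine kinase moves a phosphate between ATP and creatine. Mitochondrial creatine kinase (Ckmt2, the sarcomeric form) makes phosphocreatine where ATP is produced, and the cytosolic muscle form (Ckm) remakes ATP at the myofibrils and ion pumps. The brain form (Ckb) is the cytosolic isoform of brain and embryonic heart, and its share among the cytosolic forms is known to be higher in hypertrophied and failing hearts. Slc6a8 takes creatine up from the blood, since cardiomyocytes make little of their own. Ak1, the cytosolic adenylate kinase, makes ATP and AMP from 2 ADP, and Mb, myoglobin, binds oxygen in the cytoplasm of muscle cells.

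Of the 3 creatine kinase genes only Ckb passed the test after 4 tamoxifen injections, so the 250 bases before its annotated start site are shown beside those of Ckm and Ckmt2, 5′ to 3′, from RefSeq on build GRCm38.p6. Capitals mark E-boxes (CANNTG), to which basic helix-loop-helix factors bind, in Ckm and Ckmt2, and a MEF2 box, the site type bound by myocyte enhancer factor 2, in Ckb. Ckm lies at chr7:19410844-19411093 on the plus strand, Ckmt2 at chr13:91876886-91877135 on the minus strand and Ckb at chr12:111672339-111672588 on the minus strand.
Ckm: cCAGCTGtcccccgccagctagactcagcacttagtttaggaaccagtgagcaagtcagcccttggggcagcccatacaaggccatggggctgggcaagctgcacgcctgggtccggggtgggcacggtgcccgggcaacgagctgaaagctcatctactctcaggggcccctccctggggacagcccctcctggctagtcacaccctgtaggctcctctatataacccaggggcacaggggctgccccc
Ckmt2: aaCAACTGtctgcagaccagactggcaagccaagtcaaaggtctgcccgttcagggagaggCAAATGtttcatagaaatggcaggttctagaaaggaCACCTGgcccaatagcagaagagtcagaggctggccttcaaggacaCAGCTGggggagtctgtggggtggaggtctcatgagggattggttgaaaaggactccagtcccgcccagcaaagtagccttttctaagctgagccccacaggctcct
Ckb: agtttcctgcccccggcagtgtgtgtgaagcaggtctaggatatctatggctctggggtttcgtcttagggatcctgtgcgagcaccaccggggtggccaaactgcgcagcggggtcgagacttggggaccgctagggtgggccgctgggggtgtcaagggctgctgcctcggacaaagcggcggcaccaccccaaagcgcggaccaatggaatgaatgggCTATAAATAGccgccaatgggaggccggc
The windows of Ckm, Ckmt2 and Ckb held 1, 4 and 0 E-boxes, and 66.2% of 32817 windows of this length in the same table held at least 1. The MEF2 box of Ckb began at position -29 from the start site and overlapped a TATA box (TATAAA) that began at -28, while 2.92% of all windows held a MEF2 box and 12.4% held TATAAA. Neither pattern, as spelled here, was found in the windows of Ckm or Ckmt2. Other spellings of a TATA box, such as the tatataa in the Ckm window, were not searched. CpG pairs numbered 6 in the Ckm window, 2 in Ckmt2 and 16 in Ckb, against a median of 6 over all windows. An exact CArG box and the half-site TNAAGGTCA of oestrogen-related receptors were searched on both strands like the other motifs. They were found in none of the 3 windows, and in 1.47% and 1.14% of all windows. Near matches were not counted. The table held 4 start sites for Ak1 and 3 for Mb, and its windows for both genes held E-boxes and none of the other motifs searched. Slc6a8 was not matched. A match is a description of letters and not a measured binding site.

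The left ventricle label was checked against defining markers. On all arrays the cardiomyocyte genes Actc1 (12.85 to 12.99) and Myh6 (12.38 to 12.73) lay near the top of the scale, on which the highest value of any probe set was 13.28. The fast skeletal myosins Myh1, Myh2 and Myh4 stayed at or below 4.52, and the skeletal muscle regulator Myod1 at or below 4.91. Myl7, a myosin light chain of the atria, ranged from 4.03 to 8.93 and so varied between arrays labelled as left ventricle. Arrays of the MerCreMer 4 TAM group correlated with each other at 0.9182 to 0.9742, while the lowest correlation within any other group was 0.9824. Replicate 3 of that group stands apart in several of the results, and some of these are given with and without it. The labels number the replicates without saying that each came from its own animal, so p-values measure the spread between these samples, which may be partly technical.

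The effect of 4 tamoxifen injections in MerCreMer ventricles was examined first. Ckb was higher in all 3 MerCreMer 4 TAM arrays than in any MerCreMer 4 control array and was the 1 gene of the 6 that passed the test. Ckmt2, Mb, Ak1 and Ckm averaged lower and Slc6a8 higher, but these 5 differences did not pass the test and each was smaller than the SD of the TAM arrays. For Ckmt2, Mb, Ak1 and Ckm the lower average came mainly from replicate 3.

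Ckb had 8.98, 8.14 and 8.45 in the MerCreMer 4 TAM arrays (replicates 1, 2 and 3), against 8.09, 7.56 and 7.93 in the MerCreMer 4 control arrays. The groups did not overlap, but the lowest TAM array, the female replicate 2, was only just above the highest control array. Ckb averaged 8.52 ± 0.4242 in MerCreMer 4 TAM and 7.86 ± 0.2699 in MerCreMer 4 control ventricles (SD, n = 3 each). The difference was 0.66 (SE 0.1604, 95% interval 0.33 to 1.00, limma adjusted p = 0.007136), a ratio of 1.585. In whole tissue, a change in the number of cells that carry a transcript and a change in its amount per cell cannot be told apart. Of all genes tested, 23.3% were called in this comparison, 13.9% higher and 9.41% lower, and in 16.6% the TAM arrays all lay above the control arrays. A count of 1 called among 6 genes is thus near the background. The share of all genes whose TAM arrays all lay below the control arrays is not given here. Separations in that direction therefore have no background beside them.

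The Ckb difference was called in all 6 fits that left out 1 MerCreMer array of this comparison, with values from 0.45 without TAM replicate 1 to 0.84 without TAM replicate 2. It lost the call when only the 6 arrays compared were fitted (0.66, limma adjusted p = 0.196), with weights per array (0.40, limma adjusted p = 0.1264) and when groups were weighted by their own variance (0.66, limma adjusted p = 0.067). The arrays also split by the signal of a probe set without annotation, a split found after seeing the data, with 2 TAM and 2 control arrays of this comparison on its high side. Ckb differed by 0.97 on the high side (fitted without the sex term, limma adjusted p = 0.06366) and by 0.06 between the 1 TAM and 1 control array on the low side. The low side set a female TAM array against the male control array. The high side set 1 male and 1 female TAM array against 2 female control arrays, so this contrast mixes the split with sex.

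Ckmt2 had 11.39, 11.20 and 10.02 in the MerCreMer 4 TAM arrays, against 11.44, 11.36 and 11.41 in the MerCreMer 4 control arrays. Replicate 3 was lowest by more than 1 log2 unit, replicate 2 was also below all controls, and replicate 1 lay among them. The difference was -0.53 (SE 0.2059, 95% interval -0.96 to -0.10, limma adjusted p = 0.06862), which did not pass the threshold of 0.05. Ckm had 12.09, 11.93 and 11.09 in the MerCreMer 4 TAM arrays, against 11.99, 11.90 and 11.88 in the MerCreMer 4 control arrays. Here the TAM group held both the highest and the lowest of the 6 values. The difference was -0.22 (SE 0.1488, 95% interval -0.53 to 0.09, limma adjusted p = 0.303).

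Mb had 12.48, 12.37 and 11.60 in the MerCreMer 4 TAM arrays, against 12.55, 12.43 and 12.46 in the MerCreMer 4 control arrays. Replicates 2 and 3 were below all controls and replicate 1 was within their range. The difference was -0.33 (SE 0.1383, 95% interval -0.62 to -0.04, limma adjusted p = 0.0916). Ak1 had 10.41, 10.22 and 9.82 in the MerCreMer 4 TAM arrays, against 10.38, 10.39 and 10.40 in the MerCreMer 4 control arrays. The control arrays differed by only 0.02, and TAM replicates 2 and 3 were below them. The difference was -0.24 (SE 0.09477, 95% interval -0.44 to -0.04, limma adjusted p = 0.07431).

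Slc6a8 had 9.31, 8.70 and 8.47 in the MerCreMer 4 TAM arrays, against 8.75, 8.76 and 8.52 in the MerCreMer 4 control arrays. The male replicate 1 was above all controls and replicate 3 below them. The difference was 0.15 (SE 0.1661, 95% interval -0.20 to 0.50, limma adjusted p = 0.5527). The median difference of the 6 genes was -0.23, against 0.014 over all genes tested. Ckmt2, Ckb, Ak1 and Mb had an unadjusted p under 0.05, as did 37.1% of all genes tested.

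**Figure D1:**
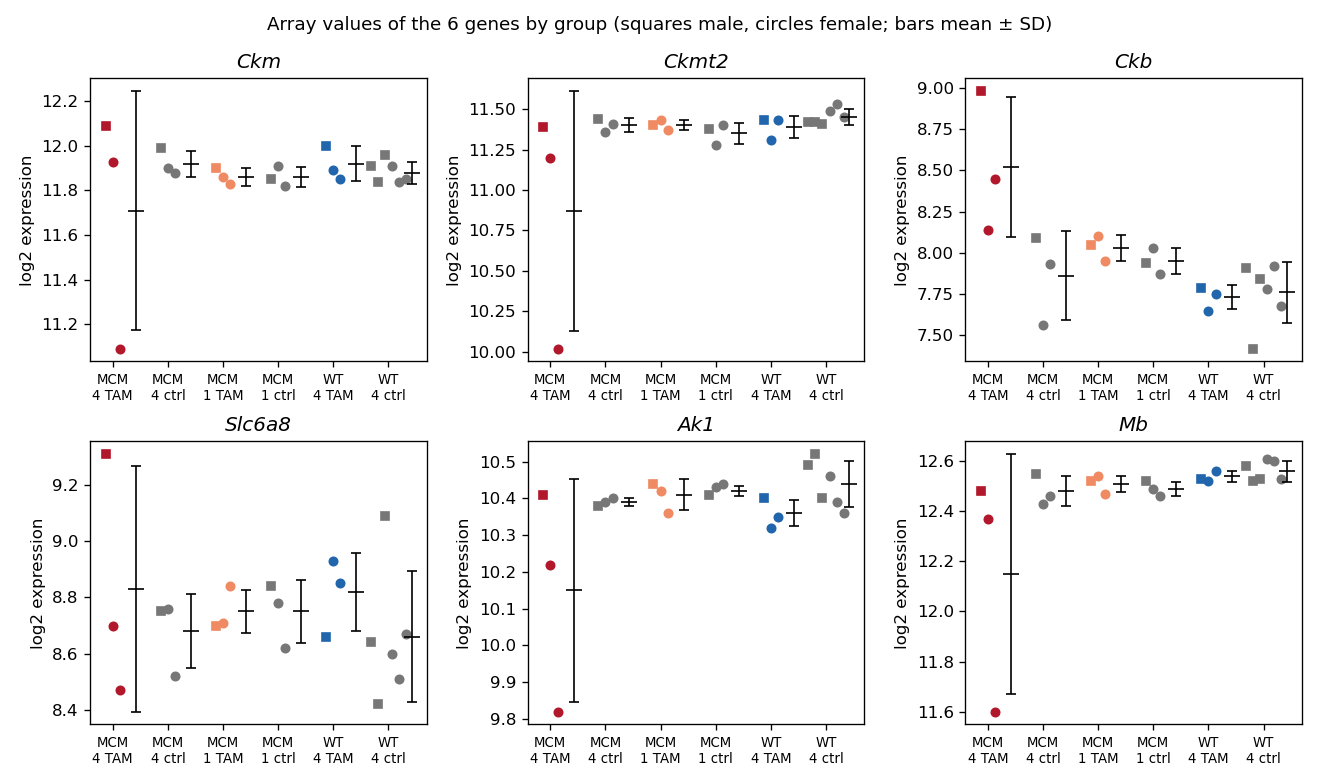
Log2 expression (vertical axes) of the 6 genes on each of the 21 arrays, by group, for MerCreMer (MCM) and wild-type (WT) mice after tamoxifen (TAM) or control (ctrl) injections, with the mean and SD of each group as a bar. The MCM 4 TAM arrays of Ckb (8.14 to 8.98) lie above the MCM 4 control arrays (7.56 to 8.09), and those of Ckmt2, Ckm, Ak1 and Mb spread widely, with 1 female array far below the rest.

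Much of the pattern in the 4 genes with lower averages turned on a single array. Without MerCreMer 4 TAM replicate 3 the differences were -0.11 for Ckmt2, 0.08 for Ckm, -0.08 for Ak1 and -0.06 for Mb, none of them called. Without replicate 1, Ckmt2 (-0.79, limma adjusted p = 0.00765), Ak1 (-0.36, limma adjusted p = 0.007456) and Mb (-0.49, limma adjusted p = 0.01401) were called lower together with the higher Ckb. Without replicate 2 the same 4 genes were called, with Ckmt2 at -0.72, Ak1 at -0.29 and Mb at -0.46. Ckm was called in none of these fits.

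Set against the mean of the MerCreMer 4 control arrays, the 3 TAM arrays had unlike profiles. Replicate 1, the male, had Ckb at 1.12 and Slc6a8 at 0.63, with Ckm at 0.17, Ckmt2 at -0.01, Ak1 at 0.02 and Mb at 0.00. Replicate 2 had Ckb at 0.28 and the other 5 genes between -0.21 and 0.02. Replicate 3 had Ckb at 0.59, with Ckmt2 at -1.38, Mb at -0.88, Ckm at -0.83, Ak1 at -0.57 and Slc6a8 at -0.21. Thus Ckb was above the control mean on each TAM array, including the array on which Ckm was lowest. The difference of Ckb minus that of Ckm was 0.95, 0.27 and 1.42 on the 3 TAM arrays, against 0.16, -0.27 and 0.12 on the control arrays.

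The SD of the MerCreMer 4 TAM group was 13.75 times the pooled SD of the other 5 groups for Ckmt2, 12.25 times for Mb, 9.679 times for Ckm and 7.904 times for Ak1. For Ckb the ratio was 2.675 and for Slc6a8 2.945, and the median over all genes tested was 1.902. Outside the MerCreMer 4 TAM group, Ckm, Ckmt2, Ak1 and Mb varied little between replicates, with pooled SDs of 0.05534, 0.05385, 0.03831 and 0.03904.

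Markers of several cell types also differed between these groups, in a comparison that called 13.9% of all genes higher and 9.41% lower. Among cardiomyocyte markers 5 of 18 were called lower and 0 higher in MerCreMer 4 TAM ventricles (median difference -0.11), and their mean level was 11.35 to 11.81 on the TAM arrays, against 11.87 to 11.92 on the MerCreMer 4 control arrays. All 18 tested macrophage and monocyte markers were called higher (median 1.02), with a mean level of 6.76 to 8.29 on the TAM arrays, against 6.36 to 6.40 on the control arrays. Their median difference from the control mean was 0.86, 0.30 and 1.88 on TAM replicates 1, 2 and 3, and that of the cardiomyocyte markers was -0.16, 0.04 and -0.26. Replicate 3, lowest for Ckm, Ckmt2, Ak1 and Mb, was thus highest in macrophage markers, whereas replicate 1, highest for Ckb, came between. Replicates 1 and 2 did not follow that order, since replicate 2 was below replicate 1 in Ckmt2, Ak1 and Mb but had the smallest macrophage difference and the highest cardiomyocyte median. The part of these cells in the results was not tested.

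Endothelial markers were called lower in 3 of 13 (median -0.26), fibroblast markers higher in 1 and lower in 1 of 12 (median 0.09), and smooth muscle and pericyte markers higher in 1 of 9 (median -0.06). Skeletal muscle markers were called higher in 2 of 4 tested (Tnnt3, troponin T of fast muscle, and Mybpc2, the fast form of myosin-binding protein C), named after their values were seen. Another 9 skeletal muscle markers, among them the fast myosins, were below the expression filter. Of erythroid markers 0 of 3 and of neuron and glia markers 0 of 2 tested (Sox10 and Stmn2) were called, and 5 further neuron and glia markers were below the expression filter.

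Among the atrial markers, the light chains Myl7 and Myl4 differed most in size. Of 4 tested, 1 was called lower and 0 higher in MerCreMer 4 TAM ventricles (median -1.12), and their median difference from the control mean was -1.32, -1.01 and -1.09 on TAM replicates 1, 2 and 3. Myl7 had 4.07, 4.72 and 5.04 in the MerCreMer 4 TAM arrays, against 8.60, 8.11 and 8.43 in the MerCreMer 4 control arrays, a difference of -3.77 (SE 1.108, limma adjusted p = 0.02112). Myl4, another atrial light chain, had 6.73, 7.29 and 7.32 in the MerCreMer 4 TAM arrays, against 9.45, 8.99 and 9.22 in the MerCreMer 4 control arrays, a difference of -2.11 (limma adjusted p = 0.07587). Both genes were lower on every TAM array than on any control array, and Myl4 was named after its values were seen. The MerCreMer 4 control group, the reference here, had the highest median of both genes among the 6 groups. For Myl7 it was 8.43, against 4.72 in MerCreMer 4 TAM, 4.05 in MerCreMer 1 control and 4.36 in wild-type 4 control ventricles. For Myl4 these medians were 9.22, 7.29, 5.96 and 6.26. MerCreMer 1 TAM ventricles had 7.08 for Myl7 and 8.30 for Myl4, and wild-type 4 TAM ventricles 5.59 and 7.08. Myl7 ran from 4.30 to 8.36 after 1 tamoxifen injection and from 4.03 to 8.93 after 1 control injection in MerCreMer mice, and in wild-type mice from 4.68 to 7.82 after 4 tamoxifen injections and from 4.22 to 7.02 after 4 control injections. Between the control-injected genotypes the atrial median was 1.43, with 0 of 4 called. Nppa, the atrial natriuretic peptide, which stressed ventricles also express, differed by 1.02 (limma adjusted p = 0.08305) in the opposite direction. Nr2f2, the remaining tested marker of this list, differed by -0.13 (limma adjusted p = 0.302). Sln (3.12 to 4.65 over all arrays) and Bmp10 (2.1 to 2.85) were below the expression filter. Whether the atrial signal has a part in the results on the 6 genes was not tested.

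**Figure D2:**
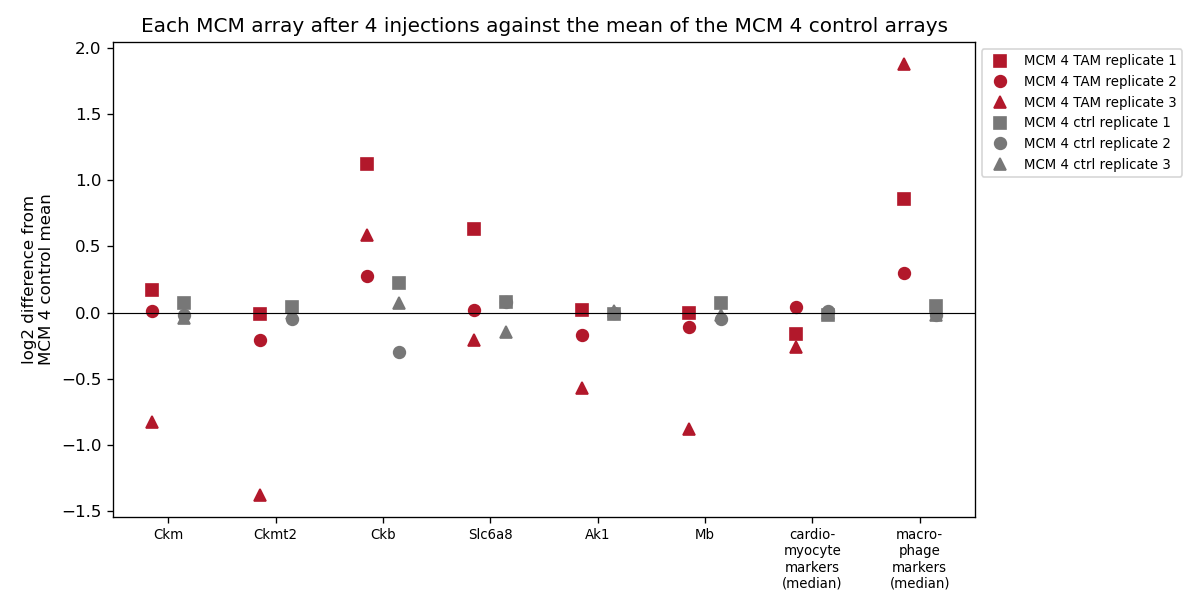
Log2 difference of each MerCreMer (MCM) array after 4 tamoxifen (TAM) or 4 control (ctrl) injections from the mean of the 3 MCM 4 control arrays (vertical axis), for the 6 genes and for the median of the cardiomyocyte and macrophage marker lists. Points are single arrays; TAM replicate 3 is lowest for Ckmt2 (-1.38) and highest for macrophage markers (1.88), and TAM replicate 1 is highest for Ckb (1.12).

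The second comparison asked whether 1 tamoxifen injection had any such effect in MerCreMer mice, and the third whether 4 injections had one in mice without the transgene. No gene of the 6 was called in either. The spread in both tests was shared with the MerCreMer 4 TAM arrays. With those arrays left out of the fit, 0 of the 6 were called as well. After 1 injection limma called 0 of 6, with 0 also at an unadjusted p under 0.05, and the background was 0.00878% of all genes (1 gene), or 3.34% at an unadjusted p under 0.05. In wild-type mice limma called 0 of 6, again with 0 at an unadjusted p under 0.05, and the background was 0%, with 2.59% at an unadjusted p under 0.05.

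Ckb had 8.05, 8.10 and 7.95 after 1 tamoxifen injection in MerCreMer mice, against 7.94, 8.03 and 7.87 after 1 control injection. The difference was 0.08 (95% interval -0.25 to 0.42, limma adjusted p = 0.9999), and the groups overlapped. Ckmt2 had 11.40, 11.43 and 11.37 after 1 tamoxifen injection, against 11.38, 11.28 and 11.40 after 1 control injection, a difference of 0.05 (95% interval -0.38 to 0.48). The other 4 genes differed by -0.02 to 0.02 after 1 injection. For the remaining arrays, Ckm had 11.90, 11.86 and 11.83 after 1 tamoxifen injection, against 11.85, 11.91 and 11.82 after 1 control injection. Mb had 12.52, 12.54 and 12.47 after 1 tamoxifen injection, against 12.52, 12.49 and 12.46 after 1 control injection. The arrays of both groups interleaved for Ckm and Mb. Ak1 had 10.44, 10.42 and 10.36 after 1 tamoxifen injection, against 10.41, 10.43 and 10.44 after 1 control injection. Slc6a8 had 8.70, 8.71 and 8.84 after 1 tamoxifen injection, against 8.84, 8.78 and 8.62 after 1 control injection. Neither gene separated the groups.

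In wild-type mice Ckb had 7.79, 7.65 and 7.75 after 4 tamoxifen injections, against 7.42 to 7.92 with a median of 7.81 after 4 control injections. The difference was -0.01 (95% interval -0.30 to 0.29, limma adjusted p = 0.9999), and all 3 TAM arrays fell within the control range. Ckmt2 had 11.43, 11.31 and 11.43 in wild-type TAM arrays, against 11.41 to 11.53 with a median of 11.44 in wild-type control arrays, a difference of -0.04 (95% interval -0.42 to 0.33). Slc6a8 had 8.66, 8.93 and 8.85 in wild-type TAM arrays, against 8.42 to 9.09 with a median of 8.62 in wild-type control arrays. Its difference of 0.18 (95% interval -0.12 to 0.48, limma adjusted p = 0.9999) was the largest of the 6 in wild-type mice and lay within the spread of the controls.

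Ckm had 12.00, 11.89 and 11.85 in wild-type TAM arrays, against 11.84 to 11.96 with a median of 11.88 in wild-type control arrays. Ak1 had 10.40, 10.32 and 10.35 in wild-type TAM arrays, against 10.36 to 10.52 with a median of 10.43 in wild-type control arrays. Mb had 12.53, 12.52 and 12.56 in wild-type TAM arrays, against 12.52 to 12.61 with a median of 12.56 in wild-type control arrays. Their differences were 0.05, -0.07 and -0.01, and the groups overlapped for each.

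The transgene without tamoxifen was examined in the control-injected mice (4 injections), with MerCreMer set against wild-type ventricles. The 6 genes differed by -0.07 (Mb) to 0.13 (Ckb), limma called 0 of them, 0 had an unadjusted p under 0.05, and the backgrounds were 0.676% and 14.9%. The lowest limma adjusted p was 0.7171, for Ckb, whose 95% interval was -0.17 to 0.42. On the split named above, 2 of the 3 MerCreMer control arrays and 0 of the wild-type arrays lay on the high side, so the split and the genotype can hardly be told apart.

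**Figure D3:**
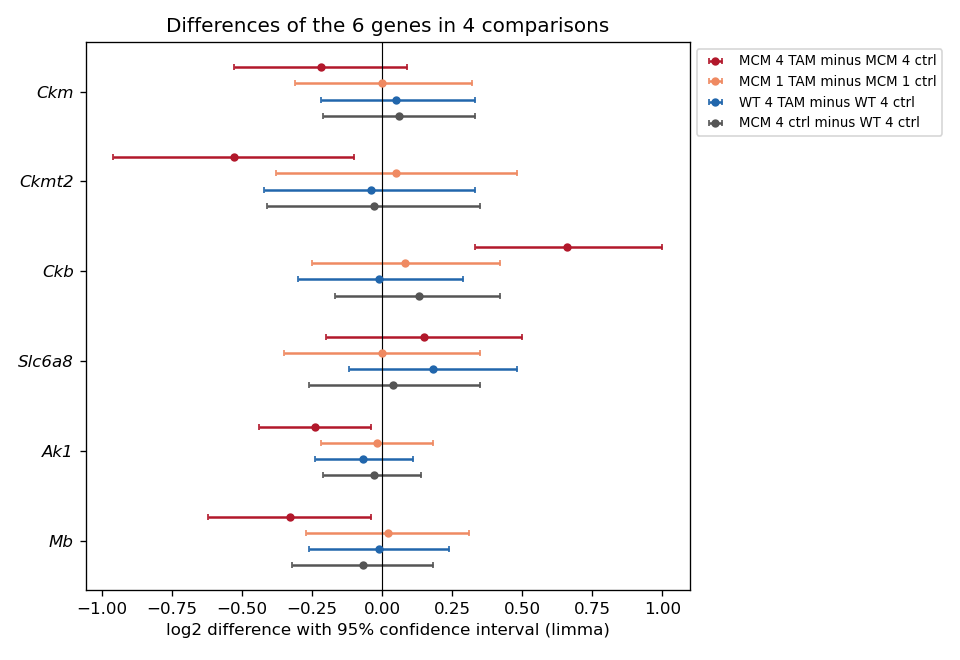
Log2 differences (horizontal axis) of the 6 genes in 4 comparisons, as points with 95% confidence intervals from limma, for MerCreMer (MCM) and wild-type (WT) mice after tamoxifen (TAM) or control (ctrl) injections. The interval of Ckb after 4 injections in MCM mice (0.33 to 1.00) lies above 0 and is the one that passed the adjusted threshold, while all intervals of the other 3 comparisons include 0.

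Whether the effect in MerCreMer mice after 4 injections differed from the effects in the other mice was tested directly. For Ckb, the 4 tamoxifen effect in MerCreMer mice minus that in wild-type mice was 0.67 (SE 0.2127, 95% interval 0.22 to 1.12, limma adjusted p = 0.05981). The effect of 4 injections minus that of 1 injection in MerCreMer mice was 0.58 for Ckb (SE 0.2268, 95% interval 0.10 to 1.06, limma adjusted p = 0.135). Limma called 0 of 6 genes in either test, where Ckb alone had an unadjusted p under 0.05, and the backgrounds were 7.98% and 5.78%, or 24.9% and 23.1% at an unadjusted p under 0.05. For Ckmt2 these differences were -0.49 (limma adjusted p = 0.2818) and -0.58 (limma adjusted p = 0.2409). The Ckb genotype difference was called without MerCreMer 4 TAM replicate 2 (0.85, limma adjusted p = 0.008135) and without wild-type control replicate 2 (0.75, limma adjusted p = 0.02247). The injection day difference was called without MerCreMer 4 TAM replicate 2 for Ckb (0.76, limma adjusted p = 0.02248) and without replicate 1 for Ckmt2 (-0.84, limma adjusted p = 0.04802).

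Over the 6 groups, mean Ckb was highest in MerCreMer 4 TAM ventricles (8.52), ahead of MerCreMer 1 TAM (8.03), MerCreMer 1 control (7.95) and MerCreMer 4 control ventricles (7.86). The lowest mean was that of wild-type 4 TAM ventricles (7.73), next to wild-type 4 control ventricles (7.76). The lowest MerCreMer 4 TAM array (8.14) was just above the highest MerCreMer 1 TAM array (8.10), and all other neighbours in this order overlapped. For Ckmt2, Ak1, Mb and Ckm the MerCreMer 4 TAM group had the lowest mean of the 6 groups (10.87, 10.15, 12.15 and 11.71), and its range overlapped that of the group next to it. The highest means of Ckmt2 (11.45), Ak1 (10.44) and Mb (12.56) were those of the wild-type control group. For Slc6a8 the mean was highest in MerCreMer 4 TAM (8.83) and lowest in wild-type 4 control ventricles (8.66), and all neighbours overlapped.

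The genes whose patterns over the 21 arrays were most like each gene were found by the root mean square difference of centred log2 values, as a share of that gene's own SD, among 11383 other genes. For Ckmt2 these were Acadm (0.1782), the medium-chain acyl-CoA dehydrogenase of fatty acid oxidation, Fars2 (0.2459), the mitochondrial phenylalanyl-tRNA synthetase, and Etfa (0.2461), a subunit of the electron transfer flavoprotein. For Mb they were Sod2 (0.2579), the mitochondrial superoxide dismutase, Gnpat (0.2674), an enzyme of ether lipid synthesis, and Pygm (0.2844), the muscle glycogen phosphorylase. For Ckm they were Crat (0.3013), the carnitine acetyltransferase, Zer1 (0.3474), a substrate receptor of a ubiquitin ligase, and Cyb5rl (0.3739). For Ak1 they were Cox4i1 (0.3004), a subunit of cytochrome c oxidase, Clpb (0.3245), a mitochondrial chaperone, and Rnf146 (0.4058), a ubiquitin ligase. All of these patterns rest on the same 21 arrays, among which the MerCreMer 4 TAM arrays varied most for these 4 genes.

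The nearest patterns were farther away for Ckb and Slc6a8. For Ckb they were Mir692-1 (0.4099), Dexi (0.4572) and Tmem189 (0.4864). For Slc6a8 they were Slc12a2 (0.5378), a sodium, potassium and chloride cotransporter, Phospho2 (0.5578) and Ermp1 (0.5734). A value of 0 would mean identical patterns, and the measure gives no test.

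The wider pathways were followed through lists of genes around phosphate transfer and oxygen. Between MerCreMer 4 TAM and 4 control ventricles, 13.9% of all genes tested were called higher and 9.41% lower. Creatine synthesis and uptake had 1 of 3 genes called higher after 4 tamoxifen injections in MerCreMer mice (median 0.20). That gene was Gatm, which catalyses the first step of creatine synthesis and had 5.86, 5.95 and 7.17 in MerCreMer 4 TAM arrays, against 5.53, 5.31 and 5.55 in MerCreMer 4 control arrays. The groups did not overlap, and replicate 3 was the highest. The difference was 0.86 (SE 0.2359, limma adjusted p = 0.01469). It was 0.42 without TAM replicate 3, and the call was lost without control replicate 2 (0.79, limma adjusted p = 0.05479). Gamt, which makes creatine from the product of Gatm, differed by 0.20 (limma adjusted p = 0.3175). The further mitochondrial creatine kinase Ckmt1 lay at 4.27 to 4.96 on all arrays and was not tested.

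Among adenylate kinases 0 of 3 tested genes were called (median -0.24). Ak4, a mitochondrial matrix form, had 7.43, 6.83 and 6.27 in MerCreMer 4 TAM arrays, against 7.28, 7.41 and 7.32 in MerCreMer 4 control arrays, a difference of -0.49 (SE 0.1761, limma adjusted p = 0.05258). Its replicate 1 was above and its replicates 2 and 3 below all controls. The Ak4 difference ran from -0.73 to -0.23 over the 6 fits that left out 1 array of this comparison. Ak3, the matrix form that uses GTP, differed by -0.20 (limma adjusted p = 0.1353), and Ak5, Ak7 and Ak8 were below the expression filter.

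Genes that break down or salvage AMP and adenosine included changes seen on every TAM array. Of 11 tested, 4 were called higher and 2 lower (median 0.22), against 13.9% and 9.41% of all genes. Adk, adenosine kinase, which returns adenosine to AMP, had 8.17, 8.21 and 8.41 in MerCreMer 4 TAM arrays, against 9.22, 9.16 and 9.12 in MerCreMer 4 control arrays. Every TAM array was far below every control array, a separation whose share over all genes is not given here. The TAM arrays lay close together. Adk fell by 0.91 (log2 difference -0.91, SE 0.06793, limma adjusted p = 1.062e-07), a ratio of 0.534. Nt5e, the surface 5′-nucleotidase that makes adenosine from extracellular AMP, had 6.67, 7.92 and 7.85 in MerCreMer 4 TAM arrays, against 6.10, 6.53 and 6.38 in MerCreMer 4 control arrays. All TAM arrays were higher, replicate 1 the least. Nt5e rose by 1.14 (SE 0.1817, limma adjusted p = 0.0003092), and macrophages and endothelial cells also express it.

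Ampd3, an AMP deaminase, had 8.52, 8.88 and 8.68 in MerCreMer 4 TAM arrays, against 8.0, 8.28 and 7.71 in MerCreMer 4 control arrays. The groups did not overlap, and the difference was 0.69 (SE 0.1508, limma adjusted p = 0.003483). Adsl, adenylosuccinate lyase, had 8.43, 8.40 and 8.18 in MerCreMer 4 TAM arrays, against 8.70, 8.68 and 8.64 in MerCreMer 4 control arrays. It was lower on each TAM array, with a difference of -0.34 (SE 0.07663, limma adjusted p = 0.004837). The calls of Ampd3 and Adsl were lost with groups weighted by their own variance. The other 2 called genes, Hprt, of purine salvage, and Adss, an adenylosuccinate synthase, were higher and were named after their values were seen.

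Nucleoside diphosphate kinases, which pass phosphate between ATP and other nucleotides, had 1 of 7 genes called higher (median 0.01). That count is near the 13.9% called higher among all genes. Nme1 had 6.68, 6.74 and 7.91 in MerCreMer 4 TAM arrays, against 6.38, 6.57 and 6.41 in MerCreMer 4 control arrays. The groups did not overlap, though replicate 3 was more than 1 log2 unit above the other 2 TAM arrays. The difference of 0.66 (SE 0.2103, limma adjusted p = 0.03169) was 0.25 without TAM replicate 3 and not called there or without any single control array. Of the adenine nucleotide translocases and VDAC channels, which carry ADP and ATP across the mitochondrial membranes, 0 of 5 were called (median -0.07). Vdac1 had 10.80, 10.70 and 10.20 in MerCreMer 4 TAM arrays, against 10.82, 10.89 and 10.85 in MerCreMer 4 control arrays, a difference of -0.29 (limma adjusted p = 0.05033). With 1 array of this comparison left out, the Vdac1 difference ran from -0.41 to -0.11. Slc25a4, the heart and muscle translocase, differed by -0.07.

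The list for AMPK, the kinase that senses AMP, held its 7 subunits and Stk11, a kinase that acts on AMPK. Of these 8 genes 4 were called higher and 2 lower, all of them subunits (median of the 8 genes 0.11), against 13.9% and 9.41% of all genes. Within the β class and within the γ class, called subunits moved apart. Prkag2, a γ subunit, had 7.65, 7.84 and 7.87 in MerCreMer 4 TAM arrays, against 7.12, 7.44 and 7.04 in MerCreMer 4 control arrays. Prkag3, another γ subunit, known from skeletal muscle, had 6.52, 6.14 and 5.99 in MerCreMer 4 TAM arrays, against 5.51, 5.31 and 5.05 in MerCreMer 4 control arrays. In neither gene did the groups overlap. Prkag2 rose by 0.59 (SE 0.09908, limma adjusted p = 0.0004773) and Prkag3 by 0.93 (SE 0.1733, limma adjusted p = 0.001153). Prkaa1, a catalytic α subunit, had 7.79, 7.66 and 7.78 in MerCreMer 4 TAM arrays, against 7.39, 7.40 and 7.35 in MerCreMer 4 control arrays, a difference of 0.37 (SE 0.07639, limma adjusted p = 0.002716). Prkab1, a β subunit, had 7.79, 8.03 and 7.63 in MerCreMer 4 TAM arrays, against 8.24, 8.14 and 8.25 in MerCreMer 4 control arrays, a difference of -0.40 (SE 0.09735, limma adjusted p = 0.00753). The Prkab1 call was lost in 5 alternatives, among them array weights and female arrays alone, and those of Prkag3 and Prkaa1 with groups weighted by their own variance. The other called subunits, named after their values were seen, were Prkab2, which was higher, and Prkag1, which was lower.

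Among the tissue globins 0 of 2 were called. Cytoglobin, Cygb, differed by -0.21 (limma adjusted p = 0.149), and neuroglobin, Ngb, lay at 4.13 to 4.64 on all arrays and was not tested. Of 12 genes of the response to low oxygen, 1 was called higher and 1 lower (median 0.09), against 13.9% and 9.41% of all genes. Vhl, which marks hypoxia-inducible factors for degradation, had 6.34, 6.21 and 6.13 in MerCreMer 4 TAM arrays, against 5.86, 6.0 and 6.0 in MerCreMer 4 control arrays, a difference of 0.27 (SE 0.09586, limma adjusted p = 0.04625). Epas1, the hypoxia-inducible factor 2α, had 9.92, 9.80 and 9.03 in MerCreMer 4 TAM arrays, against 10.02, 9.96 and 9.96 in MerCreMer 4 control arrays, a difference of -0.40 (SE 0.14, limma adjusted p = 0.04825). Both calls were near the threshold and were lost in 13 of 19 alternatives each, and Epas1 differed by -0.14 without TAM replicate 3. Vhl lost the call without any single array of the comparison other than TAM replicate 3.

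Transcriptional regulators known to act on muscle and mitochondrial genes had 0 of 15 genes called higher and 6 lower (median -0.24), while 9.41% of all genes were called lower. Mef2c, a myocyte enhancer factor, had 7.40, 7.33 and 7.38 in MerCreMer 4 TAM arrays, against 7.92, 8.07 and 8.11 in MerCreMer 4 control arrays. The 3 TAM arrays lay within 0.07 of each other and below all controls, and Mef2c fell by 0.66 (log2 difference -0.66, SE 0.06151, limma adjusted p = 1.481e-06). Esrrg, an oestrogen-related receptor, had 7.10, 6.95 and 6.52 in MerCreMer 4 TAM arrays, against 7.80, 7.92 and 7.85 in MerCreMer 4 control arrays, a difference of -1.0 (SE 0.1089). Ppargc1a, a coactivator of mitochondrial genes, had 6.69, 7.58 and 6.14 in MerCreMer 4 TAM arrays, against 8.21, 8.23 and 7.99 in MerCreMer 4 control arrays, a difference of -1.34 (SE 0.2226). In neither gene did the groups overlap. Mef2a, Ppargc1b and Esrra were the other 3 called lower and were named after their values were seen. Fitted on the arrays compared alone, 0 of 16 genes checked kept the call, namely the called genes of these lists with values above, other than Ckb, and Mef2a. Within the high side of the array split Adk, Mef2c, Esrrg and Ppargc1a kept it. With groups weighted by their own variance, 8 of the 16 lost the call. No gene of the 10 lists was called after 1 tamoxifen injection in MerCreMer mice, after 4 in wild-type mice, or between the control-injected genotypes.

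**Figure D4:**
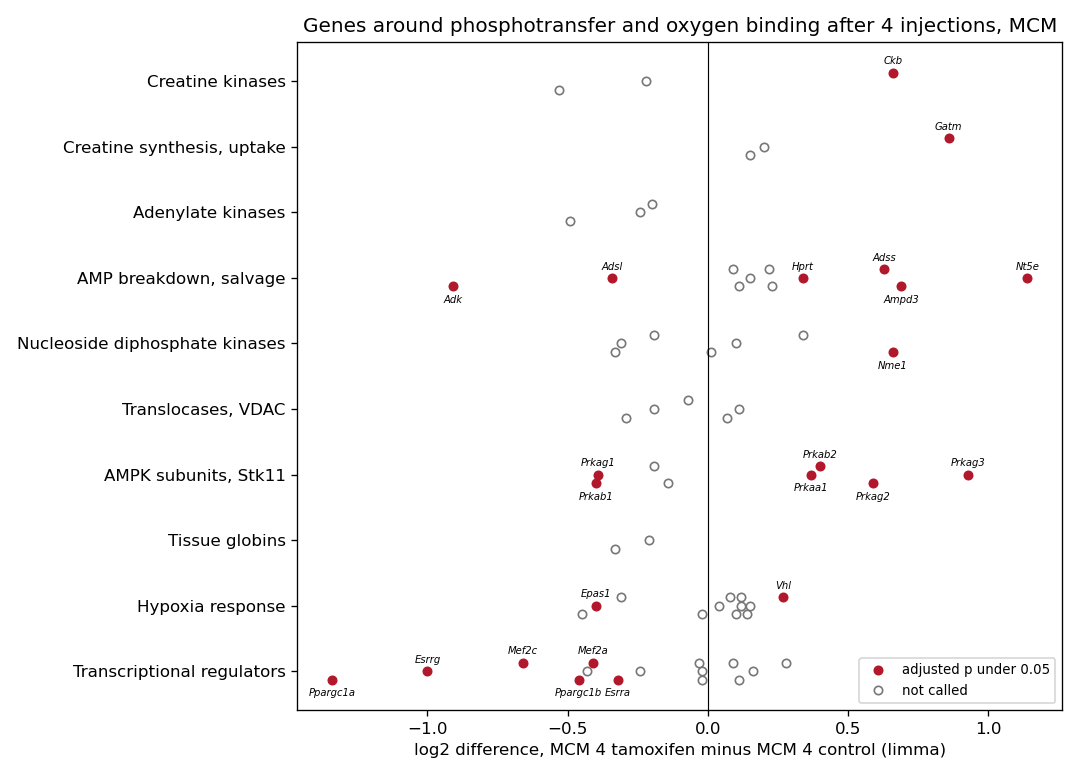
Log2 differences (horizontal axis) of the tested genes of 10 lists between MerCreMer (MCM) 4 tamoxifen and MCM 4 control ventricles, by list, with called genes filled and named. Ckb (0.66) is the filled point among the creatine kinases, Adk (-0.91) and Nt5e (1.14) lie at opposite ends of the AMP list, and the filled points among the transcriptional regulators all lie below 0.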

How the data were processed

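Total RNA of 21 left ventricle samples was hybridised to 1 array each. The deposited values were log2 expression per probe set, summarised with RMA according to the submitters' processing notes. For its software and version, the genome build and the scan dates, nothing was given in the sources used here. RMA corrects background and quantile normalises arrays, so a shift shared by most genes would be removed. Array medians were 4.57 to 4.72, and no scaling was added. Precision is limited by how many arrays there are.

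Of 34760 probe sets, 21640 named 1 gene in the platform annotation, 1321 several and 11799 none. For each of 19937 genes the single-gene probe set with the highest mean was kept, and genes reaching log2 5 on at least 3 arrays were tested (11384). Of the Entrez identifiers 99.59% matched the RefSeq table of GRCm38.p6, from which promoter sequences were taken.

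With limma 3.58.1 in R 4.3.3, 1 model with a mean per group (6) and a term for sex was fitted (14 residual and 3.977 prior degrees of freedom). P-values were Benjamini-Hochberg adjusted across the 11384 genes, and adjusted values under 0.05 were called. All 6 groups share 1 estimate of the spread, which is narrower than that of the MerCreMer 4 TAM group alone. For Ckm, Ckmt2, Ak1 and Mb it is wider than the spread within the other groups (pooled SDs of 0.03831 to 0.05534). Intervals and p-values of these 4 genes in comparisons without the MerCreMer 4 TAM group therefore also carry the scatter of that group.

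Named genes were the 6 genes, up to 3 called members of each list by smallest adjusted p or else the one with the smallest p, the 3 most alike genes of each of the 6, and markers at an edge of their list. The genes and lists were chosen with earlier results of these data known. Alternatives were no sex covariate, arrays compared only, array and group weights, a second quantile normalisation, other filters, probe set means, eBayes settings, female arrays, the replicate block, leaving out each array, and a split of the arrays.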

Additional observations from a re-analysis of the deposited data

Results flagged for a closer look

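In wild-type control ventricles Slc6a8 was 9.09 on replicate 3, against 8.42 to 8.67 on the other 5 arrays. The gap took 0.63 of the group's range, just above the critical value for 6 samples. Mef2a was 9.68 on the same replicate 3, against 9.81 to 9.89 on the other 5 arrays, a gap of 0.6264 of the range. Of 24 genes checked in this way 2 were singled out, and chance singles out about 1 in 20.

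For 9 genes of the pathway lists the tamoxifen effect in MerCreMer mice differed from that in wild-type mice by limma. These differences of effects were -0.94 for Adk (adjusted p = 6.355e-06), 1.04 for Nt5e (0.01318), -0.38 for Adsl (0.02685), 0.92 for Prkag3 (0.02015), -0.54 for Prkab1 (0.01648), -0.59 for Mef2c (0.0002478), -1.04 for Esrrg (0.0002478), -1.43 for Ppargc1a (0.006524) and -0.45 for Mef2a (0.04069), the last named after its values were seen. The replicate block alone ended 8 of these 9 calls (Mef2c adjusted p = 0.1498, Esrrg 0.1035), and Adk alone of them kept the call in all alternatives run (0.03578 with the block). The effect of 4 injections also differed from that of 1 injection in MerCreMer mice, by -0.86 for Adk (limma adjusted p = 3.702e-05), 1.19 for Nt5e (0.0107), 0.89 for Prkag3 (0.03891), -0.48 for Prkab1 (0.04735), -0.65 for Mef2c (0.000271), -1.02 for Esrrg (0.0008508) and -1.38 for Ppargc1a (0.01527). The block ended 4 of these 7 calls, and the high side of the array split, with fewer arrays, all 7. The genotype call of Mef2a was lost in 12 of 15 alternatives that left out 1 array, and that of Adsl in 6 of 15. Between injection days the call of Prkab1 was lost in 9 of 12 such alternatives and that of Prkag3 in 8 of 12. Both tests use the MerCreMer 4 TAM and 4 control arrays, so they are not independent. Of all genes tested they called 7.98% and 5.78%.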

How the results depend on the processing

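Precision is limited by the 3 arrays per group and by the wide spread of the MerCreMer 4 TAM arrays. Of the 6 genes 1 was called after 4 tamoxifen injections in MerCreMer mice. That count was 0 with only the arrays compared, with array weights, with groups weighted by their own variance and within the high side of the array split, and 1 to 4 when 1 array was left out. The difference between the genotypes and that between injection days gave 0 to 1 when 1 array was left out. In the other comparisons and alternatives the count did not change, and no called value changed sign.

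Over all genes, 2654 were called after 4 tamoxifen injections in MerCreMer mice, against 18 with only the arrays compared, 1490 with array weights, 1011 with group weights, 1502 with female arrays, 1655 with the replicate block, 236 within the high side of the split and 1648 to 3846 with 1 array left out. A second quantile normalisation called 2681, of which 1368 were higher, against 1583 of 2654. Between the control-injected genotypes 77 genes were called, against 280 with only the arrays compared, 1070 with array weights, 648 with group weights, 12 with female arrays, 1 with the replicate block, 7 with the array split as a block and 10 to 128 with 1 array left out. That count was 687 with the spread taken without the MerCreMer 4 TAM arrays, an alternative added after seeing the data. The genotype difference was called for 909 genes, against 528 with only the arrays compared, 585 with group weights, 192 with female arrays and 504 to 2242 with 1 array left out. The injection day difference was called for 658 genes, against 113 with only the arrays compared, 411 without a filter, 139 with female arrays, 7 within the high side and 378 to 1956 with 1 array left out. After 1 injection in MerCreMer mice and 4 in wild-type mice, no setting called more than 3 genes.

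The labels do not say that replicate numbers pair the samples. Deviations of same-numbered arrays correlated at 0.1116, -0.03657 and 0.05427 between MerCreMer 4 TAM and 4 control groups, and at 0.2771, 0.06957 and 0.2485 between MerCreMer 1 TAM and 1 control groups, where each array matched its own number best. For wild-type 4 TAM and 4 control groups they were 0.2757, -0.1457 and -0.2015, and for MerCreMer and wild-type control groups 0.2611, -0.2178 and -0.2383. In no pair of groups were all 3 above 0.1, and the samples were taken to share only a number. These correlations cannot settle whether the numbers pair the samples. Wild-type control replicates 1 to 3 were all male, while replicates 2 and 3 of the groups set against them were female. With the replicate block Ckb stayed at 0.66 (limma adjusted p = 0.01543) and 1 of 6 genes was called. The genotype difference was called for 27 genes with the block, against 909 without it, and the injection day difference for 232 against 658.

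The split of the arrays by a probe set without annotation, found after seeing the data, put 2 of 3 arrays of each MerCreMer group and 0 wild-type arrays on its high side. With the split as a block Ckb differed by 0.66. The cause of the split was not tested.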
